A study of Mus musculus with 8 samples.

Results

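The neutrophil granule protein genes form a set of 10 genes in 3 granule classes, taken by gene symbol from a count table of 21878 symbols. Azurophil granules were represented by Mpo, Elane, Prtn3 and Ctsg, specific granules by Ltf, Camp, Ngp and Lcn2, and gelatinase granules by Mmp8 and Mmp9. Each of the 10 symbols matched 1 entry of the table, and the genes were grouped by the granule class of their protein.

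RNA was sequenced from the peripheral blood of wild-type (WT) female C57BL/6 mice, an inbred laboratory strain, aged 6 to 8 weeks. The stress group consisted of 4 samples taken after 6 hours of restraint in a ventilated tube, and the control group of 4 samples from littermates that were left in their cage. According to the study's methods, neither group had food or water during this time, so the fast was shared by both groups. Nothing in the labels says whether each sample came from a mouse of its own, and p-values measure the spread between these samples.

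Neutrophils build their granules in sequence while they mature in the bone marrow. Azurophil granules are filled at the promyelocyte stage, specific granules at the myelocyte and metamyelocyte stages, and gelatinase granules in band cells, and each protein is packed into the granule that is forming when its gene is transcribed. Mature neutrophils in blood therefore carry azurophil proteins whose mRNA is largely gone, and they release the later granules more readily than the early ones.

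The control samples held 31471145 to 39014775 counts each and the stress samples 25978683 to 29655725. Haemoglobin mRNA, which immature red cells carry into the blood, took 51.9% to 63.8% of the counts of control samples and 61.2% to 75.5% of those of stress samples, which left 18771951 counts outside these genes in control 3 and 6352711 in stress 3. Levels are given as counts per 1000000 (CPM) of a library size scaled by TMM, a normalization that takes most genes as unchanged. At these depths 3 counts, taken as the upper limit that a count of 0 allows, correspond to 0.0433 to 0.0946 CPM for control samples and 0.0960 to 0.228 CPM for stress samples, covering counting error only.

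Per kb of exon, the levels of the 10 genes followed the granule classes in both groups, with the gelatinase genes at the top, the specific genes in the middle and the azurophil genes at the bottom. Outside these 10 genes the order did not hold throughout. In the stress group Hp, another specific granule gene, had a mean of 38.2 CPM per kb, and Mmp25, another gelatinase granule gene, of 0.564. In the control group the means were 13.7 CPM per kb for Mmp9 and 4.02 for Mmp8, then 1.80 for Lcn2, 0.542 for Ngp, 0.249 for Ltf and 0.144 for Camp. Below them came Prtn3 at 0.0356 CPM per kb, Elane at 0.0160, Mpo at 0.00671 and Ctsg at 0. In the stress group the same order held down to Prtn3, with means per kb of 26.9 CPM for Mmp9, 16.9 for Mmp8, 7.76 for Lcn2, 0.937 for Ngp, 0.445 for Ltf, 0.164 for Camp and 0.130 for Prtn3, and Ctsg, Elane and Mpo followed at 0.0735, 0.0227 and 0.0187.

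**Figure D1:**
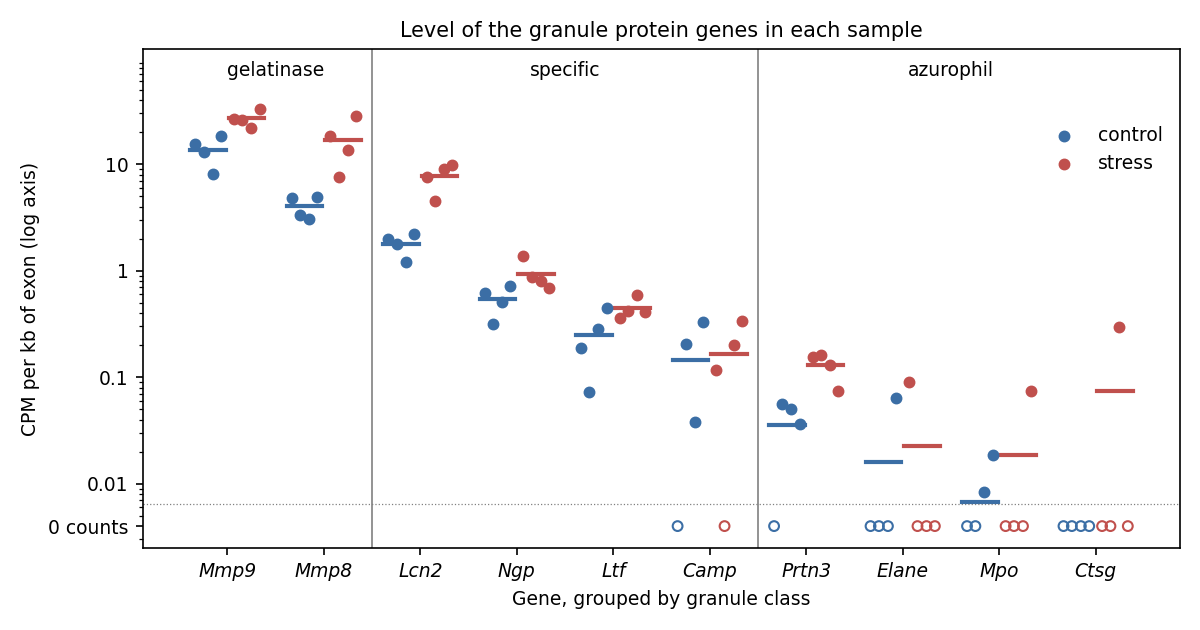
CPM per kb of exon (log axis) of the 10 granule protein genes in each sample, with control samples in blue, stress samples in red and a line at each group mean; open circles on the lowest line are samples with 0 counts. The lower gelatinase gene, Mmp8, lies above the highest specific gene, Lcn2, in 8 of 8 samples, whereas Camp and the azurophil genes overlap near the bottom of the axis.

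Comparing genes within a sample, which needs no normalization between samples, Mmp9 exceeded Mmp8, Mmp8 exceeded Lcn2, Lcn2 exceeded Ngp and Ngp exceeded Ltf per kb in 4 of 4 samples of each group. The gap between the gelatinase and the specific class was thus present in 8 of 8 samples. The border between the specific and the azurophil class was not resolved at this depth: the lowest specific gene lay above the highest azurophil gene in 3 of 8 samples, and Camp exceeded Prtn3 in 2 of 4 samples of each group. The order among Prtn3, Elane, Mpo and Ctsg rests on counts below 10, and that among Elane, Mpo and Ctsg does not exceed their spread. In the stress group Prtn3 stood at 0.130 ± 0.0395 CPM per kb, against 0.0227 ± 0.0453 for Elane and 0.0187 ± 0.0374 for Mpo (SD, n = 4). Ctsg lay above Prtn3 in stress 3, and Mpo did so in stress 4.

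Of the 10 genes, 5 had at least 10 counts in at least 4 samples and were tested: Ltf, Ngp, Lcn2, Mmp8 and Mmp9. The other 5 fell below this filter, and in a fit without it none of them was called, with adjusted p by edgeR of 0.204 for Ctsg, 0.295 for Prtn3, 0.508 for Mpo, 0.825 for Elane and 0.915 for Camp. A call required a log2 fold change beyond 1 in either direction together with an adjusted p under 0.01. Lcn2 and Mmp8 were called up, which makes 2 of 5 tested granule genes, against 198 of 11718 tested genes overall (1.69%). None of the 5 was called down by edgeR (0 at an unadjusted p under 0.05, and 0 by DESeq2 or limma-voom), against 2 of 11718 overall (0.0171%). All stress samples lay above all control samples for 3 of the 5 (Lcn2, Mmp8 and Mmp9), an order found in 11.1% of all tested genes, and all stress samples lay below all control samples for 0 of the 5, against 9.87% of all tested genes. In whole blood, more neutrophils and more RNA of a gene per neutrophil cannot be told apart.

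The azurophil genes were close to the limit of detection. Mpo encodes myeloperoxidase, which makes hypochlorous acid, and Elane, Prtn3 and Ctsg encode the serine proteases neutrophil elastase, proteinase 3 and cathepsin G. Elane and Prtn3 are neighbours on chromosome 10, with 3.1 kb and 0 other protein-coding genes between Prtn3 (chr10:79874476-79883174, plus strand) and Elane (chr10:79886247-79888215, plus strand). Mpo lies on the plus strand at chr11:87793581-87804413 and Ctsg on the minus strand at chr14:56099881-56102574, all in GRCm38.

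Mpo had counts of 0, 0, 2 and 2 in control samples 1 to 4 and of 0, 0, 0 and 8 in stress samples 1 to 4. Elane had 2 counts in control 4, 2 in stress 1 and 0 in the other 6 samples, and Ctsg had 4 counts in stress 3 and 0 in the other 7. Mpo was therefore read in 3 samples, Elane in 2 and Ctsg in 1, and no difference between the groups was detectable.

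Prtn3 had counts of 0, 5, 6 and 2 in the control samples and of 6, 6, 3 and 4 in the stress samples. Scaled by TMM, these were 0, 0.0967, 0.0867 and 0.0631 CPM in the control group and 0.268, 0.278, 0.228 and 0.128 CPM in the stress group, so that the stress samples lay above the control samples. On total counts alone the groups overlapped, with 0 to 0.154 CPM for control samples and 0.115 to 0.214 CPM for stress samples. Prtn3 had 13 counts in all 4 control samples together and 19 in the stress samples, and with at most 6 in a sample it did not pass the filter.

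Summed over the 4 azurophil genes, the counts were 0, 5, 8 and 6 in the control samples and 8, 6, 7 and 12 in the stress samples. Scaled by TMM, the sums were 0, 0.0967, 0.116 and 0.189 CPM in the control samples. They were 0.357, 0.278, 0.531 and 0.384 CPM in the stress samples, so the groups did not overlap on this scale. The difference in these sums was not tested. Low counts in this table were mostly even: among genes with 1 to 20 counts in a sample, 67.4% to 70.7% of the counts were even numbers, against 49.9% to 52.6% among genes with 21 to 100 counts. Whether the mates of a read pair were counted separately was not tested, and 2 counts may then stand for 1 fragment, in which case the limit given above for a count of 0 is too low. The exons of Mpo share 512 bases with the antisense gene Gm11505 and those of Prtn3 share 159 bases with Plppr3 on the opposite strand. Strand use in the counting is not given in the sources used here, so reads from these overlaps cannot be assigned to either gene.

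The specific granule genes spanned a wide range. Ltf encodes the iron-binding protein lactotransferrin, Camp the cathelicidin CRAMP, Ngp the neutrophilic granule protein, which is related in sequence to the cathelicidins, and Lcn2 lipocalin 2, which captures bacterial siderophores. Camp, Ngp and Ltf share a stretch of chromosome 9 (chr9:109847379-109849617, chr9:110419747-110423012 and chr9:111019271-111042767), with 570.1 kb and 8 other protein-coding genes between Camp and Ngp and 596.3 kb and 20 such genes between Ngp and Ltf. Lcn2 lies on the minus strand at chr2:32384633-32388252.

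Lcn2 measured 5.19, 4.68, 3.18 and 5.83 CPM in control samples 1 to 4 and 19.9, 11.8, 23.7 and 26.1 CPM in stress samples 1 to 4. The lowest stress sample, stress 2, was still above the highest control sample, control 4. The means were 4.72 ± 1.13 CPM (SD, n = 4) and 20.4 ± 6.25 CPM (SD, n = 4), and the log2 fold change was 2.12 (SE 0.24, 95% interval 1.59 to 2.66; quasi-likelihood test of edgeR, Benjamini-Hochberg adjusted p = 0.000894), or 4.36-fold.

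Ltf measured 0.652, 0.251, 0.982 and 1.54 CPM in the control samples and 1.25, 1.44, 2.05 and 1.41 CPM in the stress samples. The groups overlapped, because control 4 exceeded stress samples 1, 2 and 4. The log2 fold change of Ltf was 0.84 (SE 0.44, 95% interval -0.10 to 1.78; edgeR, adjusted p = 0.209).

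Ngp measured 0.761, 0.387, 0.621 and 0.883 CPM in the control samples and 1.69, 1.07, 0.987 and 0.832 CPM in the stress samples. Stress 4 lay below control 4, while the other 3 stress samples were above the control group. Its log2 fold change was 0.81 (SE 0.37, 95% interval 0.01 to 1.60; edgeR, adjusted p = 0.154), which did not pass the threshold.

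Camp had counts of 0, 8, 2 and 8 in the control samples and of 2, 0, 2 and 8 in the stress samples, or 18 against 12 in sum, and with at most 8 in a sample it did not pass the filter. No difference in Camp was detectable at this depth. Lcn2 was therefore the only specific granule gene of the 4 that was called, and the intervals of Ltf and Ngp overlap that of Lcn2. Whether the fold changes differ between these genes was not tested.

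**Figure D2:**
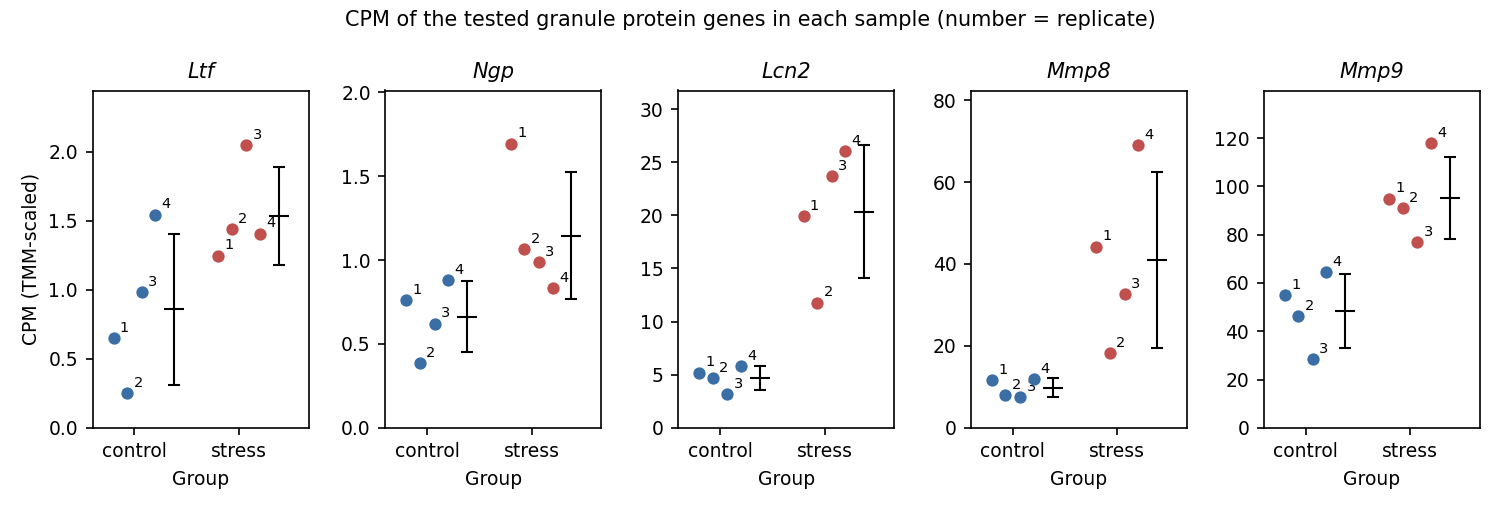
CPM, scaled by TMM, of the 5 tested granule protein genes in each sample, with control samples in blue, stress samples in red, the replicate number beside each point and the mean ± SD in black (n = 4). For Lcn2, Mmp8 and Mmp9 the groups do not overlap, and for Ltf and Ngp they do.

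The gelatinase granule genes were the most abundant of the 10. Mmp8 encodes neutrophil collagenase (chr9:7558456-7568485, plus strand), which is also stored in specific granules, and Mmp9 encodes gelatinase B (chr2:164940780-164955850, plus strand), the enzyme that gives the granule its name.

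Mmp8 measured 11.6, 8.05, 7.44 and 12.0 CPM in control samples 1 to 4 and 44.2, 18.2, 32.6 and 69.0 CPM in stress samples 1 to 4. Stress 2 was again the lowest of its group and lay above control 4, and the stress samples differed among themselves more than the control samples. The group means were 9.76 ± 2.34 and 41.0 ± 21.5 CPM (SD, n = 4), and the log2 fold change was 2.09 (SE 0.33, 95% interval 1.37 to 2.81; edgeR, adjusted p = 0.00249), or 4.25-fold.

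Mmp9 measured 54.9, 46.3, 28.4 and 64.6 CPM in the control samples and 94.9, 91.1, 76.9 and 117.8 CPM in the stress samples. All stress samples lay above all control samples, with stress 3 as the lowest of them. The means were 48.6 ± 15.4 CPM (SD, n = 4) and 95.2 ± 17.0 CPM (SD, n = 4), and the log2 fold change was 0.97 (SE 0.22, 95% interval 0.50 to 1.45; edgeR, adjusted p = 0.0135). Mmp9 was thus not called, since both its fold change and its adjusted p fell just short of the thresholds.

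In the edgeR fits the call of Mmp8 rested on single samples and on the filter. Its adjusted p by edgeR was 0.0181 without control 3, 0.0297 without stress 3 and 0.0307 without the filter on low counts. The log2 fold change stayed between 1.97 and 2.20 in these 3 fits. With all samples, DESeq2 without this filter (adjusted p = 2.69e-08) and limma-voom with it (adjusted p = 0.00240) also called Mmp8. Without control 4, Mmp9 was called as well (log2 fold change 1.17, edgeR, adjusted p = 0.00467).

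TMM factors ran from 1.01 to 1.77 for control samples and 0.507 to 1.10 for stress samples, so the scale matters. With total counts alone, the median over all tested genes moved on the log2 scale from -0.03 to -0.82, and 14 genes were called up and 729 down, in place of 198 and 2. Lcn2 and Mmp8 were among the 14, with log2 fold changes of 1.41 (edgeR, adjusted p = 0.00583) and 1.48 (edgeR, adjusted p = 0.00487). On that scale Mmp9 stood at 0.33, Ltf at 0.06 and Ngp at 0.04, all 3 above the median of all tested genes, and Lcn2 alone of the 5 kept the groups apart, at 5.64 to 6.89 CPM in control samples and 8.57 to 28.7 CPM in stress samples.

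The spread between replicates was wide for the tested granule genes. The biological coefficient of variation estimated by edgeR was 39.3% for Ltf, 31.3% for Mmp8, 29.5% for Ngp, 23.1% for Lcn2 and 22.2% for Mmp9, against a median of 15.8% over all tested genes.

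Proportions within a sample do not depend on the library size. To compare the classes, each was represented by the member with the highest mean level per kb over all samples: Prtn3, Lcn2 and Mmp9. The log2 ratio of Lcn2 to Mmp9 counts was -3.40, -3.30, -3.16 and -3.47 in control samples 1 to 4 and -2.25, -2.95, -1.70 and -2.18 in stress samples 1 to 4. All 4 stress samples had more Lcn2 per Mmp9 than all 4 control samples. The mean difference was 1.06 (two-sided exact permutation test over the 70 assignments of the 8 samples, p = 0.0286, the smallest p that the design allows), and adjusted over the 3 ratios the p was 0.0858, which does not pass 0.05. With the summed counts of each class in place of its lead gene, the difference between the specific and the gelatinase class was 0.61.

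The ratios that involve Prtn3 rest on 0 to 6 counts of that gene. The log2 ratio of Prtn3 to Mmp9 differed by 1.06 between the groups (exact permutation test, p = 0.229, adjusted p = 0.344), with an SD of 1.65 in the control group. Leaving out 1 sample moved this difference between 0.28 without control 1, which had 0 counts of Prtn3, and 1.53 without control 3 (exact permutation test, p = 0.514 and 0.0857). It was 1.13 with the summed counts of each class and 0.38 with 5 in place of 0.5 added to the counts (exact permutation test, p = 0.457). The ratio of Prtn3 to Lcn2 differed by -0.01 (exact permutation test, p = 1), with an SD of 1.57 in the control group, and its sign turned with the summed counts of each class (0.52) and when single samples were left out. With 5 added to the counts it was -0.67 (exact permutation test, p = 0.229).

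As shares of the summed counts of the 10 genes, the gelatinase class took 89.8% ± 1.37 of the control counts and 85.1% ± 3.58 of the stress counts (SD, n = 4 in each group). The specific class took 9.03%, 9.14%, 11.8% and 9.98% in the control samples and 14.1%, 11.5%, 19.6% and 13.2% in the stress samples. Stress 2 lay just below control 3, so the groups overlapped. The azurophil class took 0.167% ± 0.122 (SD, n = 4) and 0.253% ± 0.0927 (SD, n = 4).

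Within the specific class, Lcn2 took 78.6%, 85.5%, 66.1% and 68.5% of the counts in the control samples and 86.8%, 82.5%, 88.1% and 91.3% in the stress samples. Within the gelatinase class, Mmp8 took 17.4%, 14.8%, 20.7% and 15.6% in the control samples and 31.8%, 16.7%, 29.8% and 36.9% in the stress samples. For both genes 3 stress samples lay above the control group and stress 2 lay within it.

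**Figure D3:**
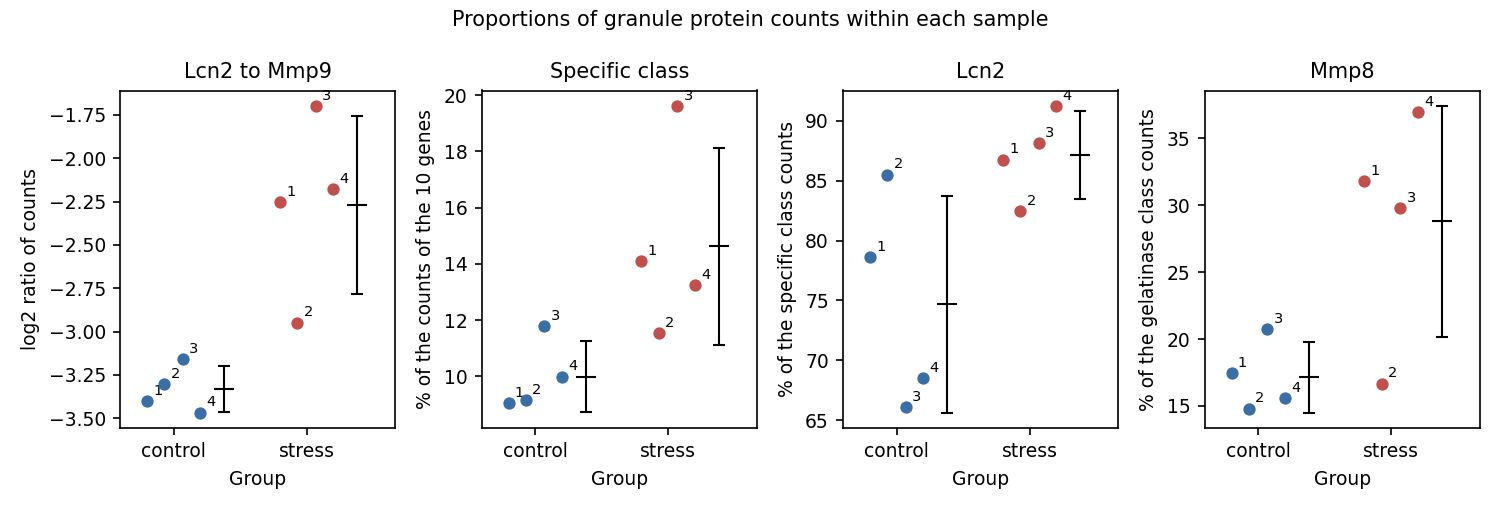
Proportions of counts within each sample: the log2 ratio of Lcn2 to Mmp9, the specific class as a percent of the counts of the 10 genes, Lcn2 as a percent of the specific class and Mmp8 as a percent of the gelatinase class, with replicate numbers beside the points and the mean ± SD in black (n = 4). The ratio of Lcn2 to Mmp9 separates the groups (highest control sample -3.16, lowest stress sample -2.95), whereas in the 3 panels of percentages stress 2 lies within the range of the control group.

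Of 10 markers of mature neutrophils 9 were called up and 0 down, with a median log2 fold change of 1.49 against -0.03 over all tested genes. Among them were Ly6g, the surface antigen used to gate mouse neutrophils (log2 fold change 2.77, edgeR, adjusted p = 0.00303), the calprotectin genes S100a8 (1.49, edgeR, adjusted p = 0.000769) and S100a9 (1.50, edgeR, adjusted p = 0.000769), and Clec4d, a C-type lectin receptor (1.58, edgeR, adjusted p = 0.000769). The most abundant marker, Csf3r, the receptor for G-CSF, was not called (0.82, edgeR, adjusted p = 0.0544). With total counts alone 0 of the 10 were called and their median was 0.73.

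The summed level of these 10 markers was 322.9, 285.9, 191.4 and 376.7 CPM in control samples 1 to 4 and 618.5, 606.0, 635.1 and 826.8 CPM in stress samples 1 to 4, without overlap between the groups. The part of neutrophil numbers in the granule gene results was not tested. The counts of each granule gene were therefore also set against the summed counts of the 10 markers in the same sample, a scale chosen after the data were seen and given without a test. Csf3r carried the largest part of the sum, with means of 118.3 of 294.2 CPM in the control group and 208.6 of 671.6 CPM in the stress group. The scale thus depends most on this marker, which was not called.

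Per 1000 counts of the marker list, Lcn2 stood at 16.1, 16.4, 16.6 and 15.5 in the control samples and at 32.2, 19.4, 37.3 and 31.5 in the stress samples. Lcn2 was narrow in the control group on this scale and all stress samples lay above it. Mmp8 stood at 35.9, 28.1, 38.9 and 31.7 in the control samples and at 71.5, 30.1, 51.4 and 83.4 in the stress samples, where stress 2 fell within the control range. Mmp9 stood at 170.0, 161.9, 148.7 and 171.6 in the control samples and at 153.5, 150.3, 121.1 and 142.5 in the stress samples, overlapping and on average lower.

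The summed markers were themselves higher by 1.22 in mean log2 CPM in the stress group, so a gene with a smaller log2 difference in CPM falls below 0 on this scale. The differences in mean log2 values were -0.20 for Mmp9, -0.13 for Ltf and -0.42 for Ngp, whereas those of Lcn2 and Mmp8 were 0.86 and 0.72. The group means were 3.03 ± 1.93 and 2.33 ± 0.657 for Ltf (SD, n = 4) and 2.32 ± 0.774 and 1.76 ± 0.723 for Ngp (SD, n = 4), and both genes overlapped between the groups.

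**Figure D4:**
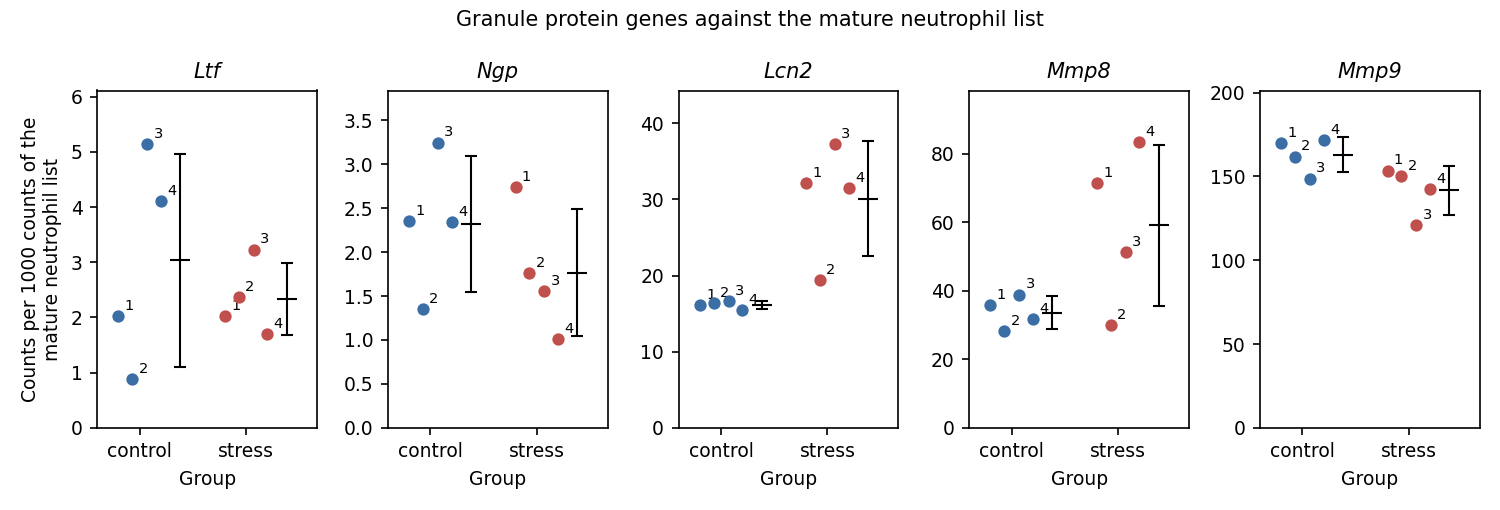
Counts of the 5 tested granule protein genes per 1000 counts of the 10 mature neutrophil markers in the same sample, with replicate numbers beside the points and the mean ± SD in black (n = 4). Only Lcn2 separates the groups (15.5 to 16.6 in the control group, 19.4 to 37.3 in the stress group); Mmp9 is on average lower in the stress group, at 141.8 against 163.0.

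Most markers of early myeloid progenitors were low, with control means below 1 CPM for Kit, Cd34 and Flt3 but not for Myb. None of the 4 tested genes of this list of 5 was called in either direction by edgeR (unadjusted p under 0.05 in 1 higher and 1 lower gene), and Ms4a3, which is specific to granulocyte and monocyte progenitors, had 0 counts in all 8 samples. Kit, the receptor for stem cell factor, stood at 0.741 CPM in the control group and 0.615 CPM in the stress group (log2 fold change -0.17, edgeR, adjusted p = 0.837), and Cd34 at 0.438 and 0.659 CPM (0.69, edgeR, adjusted p = 0.386). Flt3, a receptor of progenitors and dendritic cells, had the highest fold change of the list, at 0.929 and 2.27 CPM (1.29, edgeR, adjusted p = 0.0272), and was named after its value was seen. The most abundant gene of the list was Myb, at 5.06 and 3.34 CPM (-0.59, edgeR, adjusted p = 0.0983), which lymphoid cells also express. The summed level of the list was 5.68, 7.25, 8.22 and 7.54 CPM in the control samples and 6.42, 5.61, 5.24 and 10.3 CPM in the stress samples, so the groups overlapped. With total counts alone the median of the 4 tested genes turned from 0.26 to -0.39, against -0.82 over all tested genes. On that scale Myb was called down (-1.36, edgeR, adjusted p = 0.00813).

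Other cargo of each granule class was counted in the same way, from lists made with earlier results of these data known. Of 9 other azurophil or lysosomal genes 7 were tested and 1 was called up, Lyz2, the lysozyme of myeloid cells (log2 fold change 1.32, edgeR, adjusted p = 0.00134), which monocytes also express. The median of the 7 was 0.80 and fell to 0.01 with total counts alone, where that of all tested genes was -0.82. The azurophil protein genes Prss57 and Bpi stood at 0.0643 and 0.0315 CPM in the control group and at 0.0944 and 0 CPM in the stress group and were not tested.

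Of 15 other specific granule genes 12 were tested and 7 were called up, with a median log2 fold change of 1.33. The 3 with the smallest p were Chil3, a chitinase-like protein (2.89, edgeR, adjusted p = 0.000769), Lrg1, a leucine-rich glycoprotein (2.25, edgeR, adjusted p = 0.000900), and Slpi, a protease inhibitor (1.21, edgeR, adjusted p = 0.00107). The other 4 called genes were Hp, Chil1, Cd177 and Cfp, with log2 fold changes from 1.15 to 1.59. Of the 3 genes below the filter, Orm1, an acute phase protein, had 31 counts in the control samples and 5 in the stress samples, with all stress samples lower in CPM (0.166 against 0.0432 on average), and Ptx3 and Plau stood at 0 and 0.0832 CPM in control samples and 0.0678 and 0.166 CPM in stress samples. Stom, the most abundant gene of the list and also a red cell membrane protein, was not called (0.87, edgeR, adjusted p = 0.00363). With total counts alone the median was 0.61, and Chil3 and Lrg1 were the 2 genes still called.

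Of 7 other gelatinase granule genes 6 were tested, and Adam8, a membrane protease, was the 1 called up (1.27, edgeR, adjusted p = 0.00417). Itgb2, the β2 integrin chain and the most abundant gene of this list, had a log2 fold change of 0.43 (edgeR, adjusted p = 0.0444). The median of the 6 was 0.64 and turned to -0.05 with total counts alone, where that of all tested genes was -0.82.

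Secretory vesicles, the store that neutrophils mobilise first, carry receptors to the cell surface. Of 8 genes of this store 7 were tested and 5 were called up, with a median log2 fold change of 1.19, or 0.50 with total counts alone. The 3 with the smallest p were Fcgr3, an Fc receptor and the most abundant of the list (1.18, edgeR, adjusted p = 0.00107), Fpr1, a formyl peptide receptor (1.39, edgeR, adjusted p = 0.00340), and Fpr2 (1.54, edgeR, adjusted p = 0.00363). Mme had 0 counts in all samples. Whether the classes differ in their share of called genes was not tested. Which blood cells the RNA of the called cargo and vesicle genes came from was not tested either. Summed markers of classical monocytes were also higher, with means of 155.2 CPM in the control group and 327.7 CPM in the stress group.

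**Figure D5:**
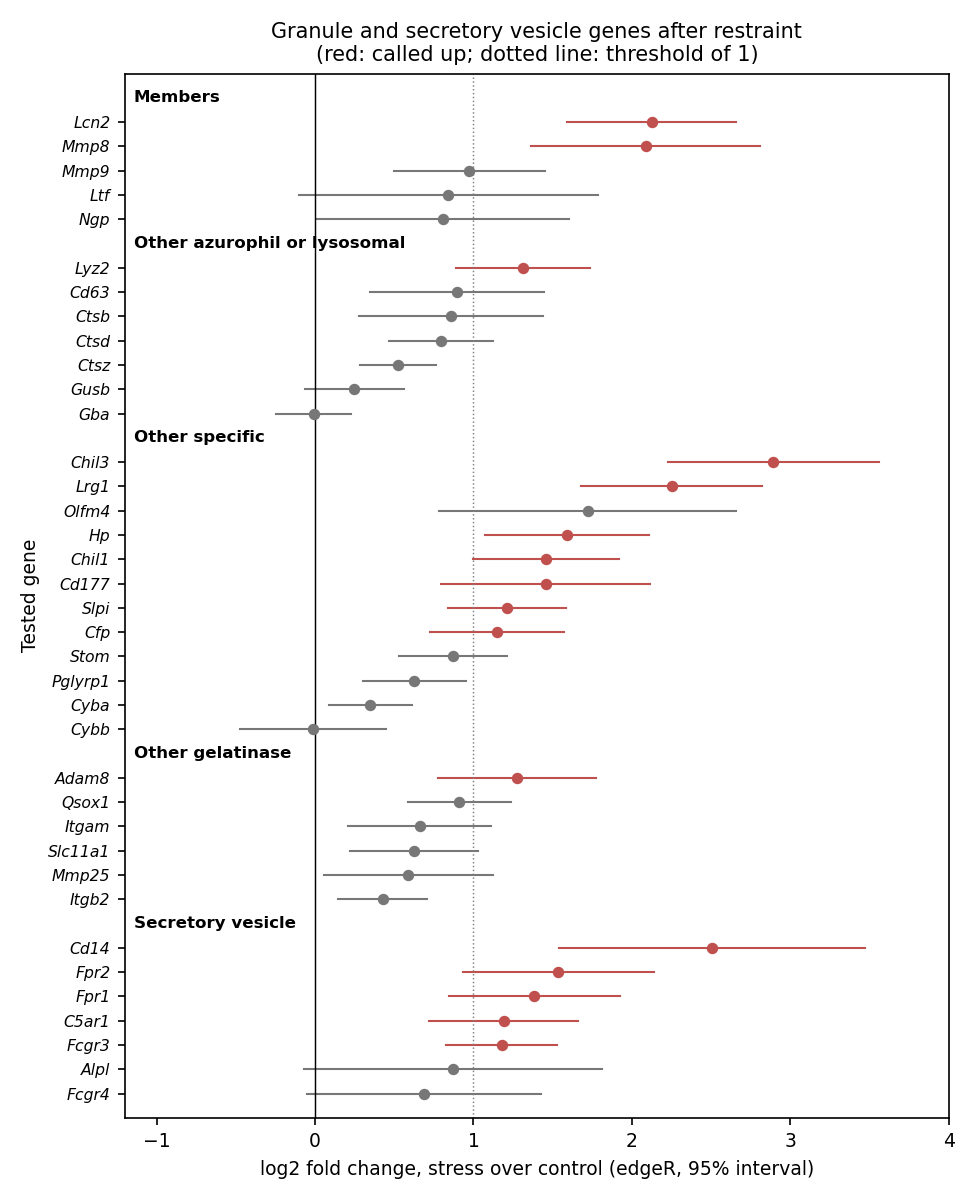
Log2 fold changes of the stress group over the control group with 95% intervals from edgeR's quasi-likelihood test, for the 5 tested members and the tested genes of the other granule and secretory vesicle lists; genes called up are red. Chil3 (2.89), Cd14 (2.51), Lrg1 (2.25), Lcn2 (2.12) and Mmp8 (2.09) have the largest values shown, while the other gelatinase genes lie between 0.43 and 1.27.

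The granule proteases depend on an activating enzyme and are held in check by inhibitors. Of 11 such genes 5 were tested and 1 was called up, Slpi, which is also in the specific granule list. Ctsc, the dipeptidase that activates the azurophil serine proteases and the most abundant gene of the list, had a log2 fold change of 0.24 (edgeR, adjusted p = 0.182), and Serpinb1a, an intracellular inhibitor of these proteases, of -0.16 (edgeR, adjusted p = 0.406). The median was 0.30 and turned to -0.43 with total counts alone, against -0.82 over all tested genes.

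Of 10 transcription factors of granulopoiesis, all tested, 2 were called up: Cebpd (1.43, edgeR, adjusted p = 0.000894) and Cebpa (1.25, edgeR, adjusted p = 0.00725). Cebpe, which is required for specific granules, measured 0.339 CPM in the control group and 0.733 CPM in the stress group (1.12, edgeR, adjusted p = 0.117), and Gfi1, a repressor needed for neutrophil maturation, 2.06 and 1.91 CPM (-0.17, edgeR, adjusted p = 0.745). Irf8, the most abundant of the list and also a B cell gene, had a log2 fold change of -0.31 (edgeR, adjusted p = 0.0654). The median of the list was 0.45 and turned to -0.31 with total counts alone, against -0.82 over all tested genes. On that scale Myb was called down.

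Of 16 genes of granule exocytosis, 15 were in the table under the symbols used and were tested, and 0 were called by edgeR in either direction (unadjusted p under 0.05 in 6 higher and 1 lower genes). Rac2, a GTPase of the oxidase and of granule release and the most abundant of them, had a log2 fold change of 0.02 (edgeR, adjusted p = 0.941). The median was 0.25 and turned to -0.55 with total counts alone, against -0.82 over all tested genes. On that scale the calls of Lyz2, Adam8, Slpi, Cebpd and Cebpa were lost as well, and Cd14 was the 1 secretory vesicle gene still called (1.82, edgeR, adjusted p = 0.00406).

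Other blood cells were followed with marker lists as well. Of 7 classical monocyte markers 3 were called up: F13a1, the most abundant (1.27, edgeR, adjusted p = 0.000769), Fn1 (2.21, edgeR, adjusted p = 0.00249) and Ccr2 (1.70, edgeR, adjusted p = 0.00742). Their summed level was 160.7, 132.6, 159.3 and 168.4 CPM in the control samples and 407.2, 216.7, 275.6 and 411.5 CPM in the stress samples. Stress 2 was the lowest of its group here, as it was for Lcn2, Mmp8 and the summed mature neutrophil markers. Monocytes can also express Lcn2, Mmp8 and Mmp9, and their part in the results was not tested. By the study's flow cytometry, which was not analysed here, monocytes in peripheral blood fell and neutrophils rose after stress.

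B cell markers had a median log2 fold change of -0.48 (0 of 5 called), T cell markers of -0.03 (0 of 5) and NK cell markers of -0.12 (0 of 4) by edgeR, with 4, 0 and 1 lower genes at an unadjusted p under 0.05. Their most abundant genes were Cd79a (log2 fold change -0.22, edgeR, adjusted p = 0.345), Cd8a (-0.12, edgeR, adjusted p = 0.429) and Gzma (0.14, edgeR, adjusted p = 0.842). Of 5 platelet markers 1 was called up, Pf4 (1.02, edgeR, adjusted p = 0.00562), with a median of 0.99, and their summed level was 1079 to 1621 CPM in control samples and 2394 to 3107 CPM in stress samples, led by Ppbp (0.99, edgeR, adjusted p = 0.00708). Erythroid markers had a median of 1.06 with 0 of 7 called by edgeR (2 higher at an unadjusted p under 0.05), and the most abundant, Hbb-bs, stood at 1.08 (edgeR, adjusted p = 0.263). Of the 2 tested eosinophil markers 0 were called by edgeR (1 higher at an unadjusted p under 0.05; Ccr3, the most abundant, stood at 0.25). Of the 3 tested basophil or mast cell markers 1 was called up, Gata2 (1.05, edgeR, adjusted p = 0.00107), while Cpa3 stood at -0.48 and Ms4a2 at -1.05 (edgeR, adjusted p = 0.543 and 0.164), which gave a median of -0.48. With total counts alone the calls differed: all 5 B cell markers and 1 NK cell marker, Ncr1, were called down, Fn1 was the 1 monocyte marker called up, and Pf4 and Gata2 were not called.

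The genes whose profile over the 8 samples was most like that of a lead gene were sought among 10305 genes outside the 10 granule genes with a mean of at least 1 CPM, by the root mean square difference of centred log2 CPM. For Lcn2 they were Lrg1 (0.15), Hp (0.29) and Trf, the transferrin gene (0.30), against a median of 1.14 over all candidates, and among the granule genes, measured apart, Mmp8 stood at 0.30, slightly closer than Trf, Mmp9 at 0.62, Ngp at 0.85 and Ltf at 0.89. Mmp9 was closest to Mxd1 (0.11), Fgl2 (0.11) and Scnn1a (0.12), against a median of 0.67. Among the granule genes, its distance was 0.48 from Ngp, 0.62 from Lcn2, 0.64 from Mmp8, the other gelatinase gene, and 0.73 from Ltf. Mxd1 is itself in the mature neutrophil list.

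Promoters were searched because the classes are filled at stages governed by different factors. RefSeq promoters of GRCm38.p6, from 250 bases before to 50 bases after the start, were found for 9 of the 10 genes; Mmp9 had no entry. The motifs, chosen after the sequences were seen, were GAGGAAGT, which holds the GGAA core bound by ETS factors such as PU.1, and TTGCNNAA, a form of the core bound by C/EBP factors, each searched on both strands. GAGGAAGT occurred in 1052 of 32851 promoters (3.2%) and in those of Mpo, Elane, Prtn3 and Mmp8. TTGCNNAA occurred in 3547 of them (10.8%) and in those of Ltf, Ngp, Lcn2 and Mmp8.

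The matches of GAGGAAGT are shown because they fell in 3 of the 4 azurophil genes and in 1 of the genes that were called. The windows printed around them lie at chr11:87793534-87793580 (Mpo), chr10:79886201-79886246 (Elane), chr10:79879546-79879605 (Prtn3) and chr9:7558182-7558241 (Mmp8). In the GENCODE annotation the match of Prtn3 is in an intron of a longer Prtn3 transcript and the other 3 are between genes. The windows are printed 5′ to 3′ on the strand of the gene, with the match in capitals, which for Mmp8 reads as the reverse complement.
Mpo: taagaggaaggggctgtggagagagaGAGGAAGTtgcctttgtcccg
Elane: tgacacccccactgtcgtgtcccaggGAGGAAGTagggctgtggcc
Prtn3: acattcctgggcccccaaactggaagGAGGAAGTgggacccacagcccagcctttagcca
Mmp8: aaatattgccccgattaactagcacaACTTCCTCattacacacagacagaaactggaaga

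The matches of TTGCNNAA are shown because they cover both called genes, Lcn2 and Mmp8, and the tested specific genes that were not called, Ltf and Ngp. The windows printed around them lie at chr9:111019191-111019250 (Ltf), chr9:110419644-110419703 (the first of 2 matches in Ngp), chr2:32387937-32387966 (Lcn2, minus strand) and chr9:7558384-7558428 (Mmp8). The match of Lcn2 is in an annotated exon of that gene and the other 3 are between genes. Capitals mark the match, which for Ltf is the reverse complement.
Ltf: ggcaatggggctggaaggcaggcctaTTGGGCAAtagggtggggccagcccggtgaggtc
Ngp: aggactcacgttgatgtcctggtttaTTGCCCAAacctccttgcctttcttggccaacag
Lcn2: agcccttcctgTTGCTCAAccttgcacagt
Mmp8: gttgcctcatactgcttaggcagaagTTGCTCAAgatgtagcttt

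The sequence with a match was thus present in genes that were called (Lcn2, Mmp8) and in genes that were not (Ltf, Ngp). A match is a description of these letters in the window, not a binding site.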

How the data were processed

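Blood RNA was sequenced in 8 samples, which were grouped by their titles into 4 control and 4 stress samples. The authors deposited 1 table of raw read counts per gene symbol, without normalization, and the submitters' processing notes name HISAT2, featureCounts and mm10; versions, annotation and strand setting are not given in the sources used here. Of 21878 symbols, 5948 had no count in any sample. No pair of samples held identical counts.

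The 11718 genes that reached 10 counts in 4 or more samples were tested with R 4.3.3 and edgeR 4.0.16, using TMM and the robust quasi-likelihood test on the whole table, with Benjamini-Hochberg adjustment over all tested genes. The fit was checked on simulated data. The call thresholds follow the study's methods. CPM values were scaled by the TMM library size. Lengths are the union of exons in GENCODE M21 (GRCm38, the assembly called mm10). Ratios of lead genes used counts plus 0.5, and profiles a prior count of 2.

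The alternatives were DESeq2 1.42.0, limma-voom (limma 3.58.1), other normalizations (total counts, upper quartile, DESeq2 size factors), other count filters, leaving out the haemoglobin genes, an adjusted p below 0.05, the replicate number as a block and fits without 1 sample. The scale set by the mature neutrophil list was added after the data were seen.

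The named genes are all 10 members and, for each of 17 lists, up to 3 called genes that were higher and up to 2 that were lower by smallest p, the most abundant gene and any gene at 0 in all samples. They also include 11 genes named in any case and the 3 nearest profiles of each lead gene outside the 10 members. Further genes, such as Prss57, Bpi, Flt3, Cpa3, Ms4a2, Orm1, Ptx3, Plau, Hp, Chil1, Cd177, Cfp and Cd14, were named after their values were seen. The members and lists were chosen with earlier results of these data known. No peptide sequence, flow cytometry or serum measurement was analysed here. Figures were drawn with matplotlib.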

Additional observations from a re-analysis of the deposited data

Results flagged for a closer look

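In 66 groups of 4 samples, the highest or lowest value was compared with the rest of its group, and 6 stood apart. For normally distributed values, chance sets apart about 1 in 20 such groups. For 4 of the 6, the value was the only one above 0 in its group: Mpo in stress 4 (0.256 CPM, from 8 counts), Elane in control 4 (0.0631 CPM, from 2 counts), Elane in stress 1 (0.0892 CPM, from 2 counts) and Ctsg in stress 3 (0.304 CPM, from 4 counts). Such a group is always set apart by this rule, so the rate of 1 in 20 does not apply to these 4.

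The log2 ratio of Prtn3 to Mmp9 in stress 4 was -9.68, far below the other stress samples, which lay between -8.36 and -8.18. The summed level of the mature neutrophil markers in stress 4 was 826.8 CPM, far above the other stress samples, which lay between 606.0 and 635.1 CPM. Stress 4 also had the highest Lcn2, Mmp8 and Mmp9 of the stress group. Without it, Lcn2 and Mmp8 were still called.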

How the results depend on the processing

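Lcn2 was called up under all 17 other tests, scales, filters and sets of samples in which it was tested, with log2 fold changes from 1.41 to 2.34, and 0 granule genes were called down under any of them. In edgeR, Mmp8 lost its call without the filter on low counts, where 1 granule gene was called. DESeq2, also run without this filter, called both Lcn2 and Mmp8. Leaving out 1 sample at a time, 1 to 3 granule genes were called up: Lcn2 alone without control 3 or stress 3, and Lcn2, Mmp8 and Mmp9 without control 4. Fewer samples then entered the fit, and no other cause was tested.

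Over all genes, 198 up and 2 down became 307 and 12 with DESeq2, which was run on 15930 genes without the count filter, so that tool and filter changed together, 337 and 20 at an adjusted p below 0.05, and 14 and 729 with total counts alone. The down count was 4 with upper quartile scaling and 4 without the filter. Leaving out 1 sample at a time gave 76 (without control 2) to 340 (without control 4) up and 1 to 8 (without stress 4) down, with 95 up without control 3.

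Nothing in the labels says that the replicate numbers pair mice. Same-numbered samples deviated together with correlations from -0.16 to 0.0621, and 2 of 8 samples correlated best with their own number. With the replicate number as a block, 189 genes were called up and 1 down, with Mmp9 among those up (log2 fold change 1.02, edgeR, adjusted p = 0.00185), and the ratio of Lcn2 to Mmp9 differed by 1.06 (exact test over 16 sign flips, p = 0.125, the smallest possible).

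The difference in that ratio lay between 0.87 and 1.29 when 1 sample was left out, with p = 0.0571 (exact permutation test) when a control sample was left out, and was 0.61 with summed class counts. The difference in the ratio of Prtn3 to Mmp9 was 1.06, ranged from 0.28 (without control 1) to 1.53 (without control 3) when 1 sample was left out, and was 1.13 with summed class counts and 0.38 with 5 added to the counts. The ratio of Prtn3 to Lcn2 turned sign with summed class counts (0.52), was -0.67 with 5 added to the counts and ranged from -0.76 to 0.41 when 1 sample was left out, being 0.28, 0.41 and 0.03 without control 2, 3 or 4 and 0.04 and 0.38 without stress 3 or 4; the cause was not tested. On the scale of the mature neutrophil list, added after the data were seen, which by itself lowers each log2 difference by about the 1.22 of the summed markers, Ltf, Ngp and Mmp9 stood at -0.13, -0.42 and -0.20, and Lcn2 and Mmp8 at 0.86 and 0.72. Per kb, the azurophil shares of the class counts were 0.295% and 0.495% in the control and stress groups. The specific shares were then 13.5% and 17.6% and the gelatinase shares 86.2% and 81.9%, in the same order.

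Depth limits the azurophil genes and Camp, whose counts stayed at or below 8 in each sample.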
